A study of Homo sapiens with 12 samples.

Results

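Glycolysis, lactate and hypoxia-linked genes were followed as a set of 31 genes in RNA-seq of NCI-H295R cells, an established human adrenocortical carcinoma line that makes steroid hormones. The members were chosen by name, as enzymes that turn glucose into lactate, their isoforms, the carriers of glucose and lactate, pyruvate dehydrogenase and its kinases, and hypoxia markers. All 31 symbols were found once each among 60617 genes, and all 31 were among the 20360 genes with enough counts to test. Every group was cultured for 96 h and had 3 biological replicates, so the data are 12 libraries of 1 cell line. Baseline cells received the vehicle DMSO. EZH2i cells were kept for 96 h in 62 µM EPZ-6438, a drug against EZH2, the enzyme with which Polycomb complex PRC2 methylates histones. CBPi cells were kept for 96 h in 26 µM PRI-724, a drug against the contact of β-catenin with its coactivator CBP. FSK cells received DMSO for 48 h and then 10 µM forskolin, an activator of adenylyl cyclase that raises cAMP, for the last 48 h. The labels call both inhibitor doses IC50 doses and do not say whether live cells were selected.

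Glycolysis splits glucose into pyruvate in the cytosol, and most of its steps have several isoenzymes encoded by separate genes. Pyruvate then either becomes lactate, through lactate dehydrogenase, or enters the mitochondrion, where pyruvate dehydrogenase turns it into acetyl-CoA and the pyruvate dehydrogenase kinases switch that enzyme off. Many of these genes are known targets of the hypoxia-inducible factors, HIF, which bind a short DNA core in their promoters when oxygen is low. In steroid-making cells, the mitochondrion also hosts the first step of steroid synthesis.

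Libraries held 20.6 to 31.5 megacounts. Levels are given as counts per megacount of the library (CPM) after scaling by TMM (trimmed mean of M values), as the mean ± SD of 3 libraries, and levels of different genes are set side by side only per kilobase of the deposited gene length. Differences are log2 fold changes against baseline ± SE from edgeR's quasi-likelihood test. That test gives no SE, so the SE is an approximation, the size of the log2 fold change over the square root of the test's F statistic. A gene was called when its Benjamini-Hochberg adjusted p over all genes tested was under 0.05, and called past 1.5-fold when edgeR's test against a fold of 1.5 also passed. The 6 adrenocortical markers were all tested, and their summed level ranged from 1683 to 1734 CPM in baseline libraries, 566 to 592 CPM in EZH2i libraries, 499 to 564 CPM in CBPi libraries and 2620 to 2781 CPM in FSK libraries. Chromaffin, fibroblast, endothelial and leukocyte markers had 1 of 4, 3 of 4, 1 of 3 and 1 of 3 genes with enough counts to test. The summed levels in any library lay between 3.41 and 6.63 CPM for chromaffin, between 8.54 and 18.4 CPM for fibroblast, at most 1.16 CPM for endothelial and at most 1.08 CPM for leukocyte markers. TH, DBH and PNMT, which define chromaffin cells, were each at most 0.132 CPM in any library. So were PTPRC, which marks leukocytes, and CD3E, which marks T cells only. The endothelial sum was higher with FSK than in the other groups. The fibroblast sum was lower with FSK (12.1 to 13.3 CPM) and CBPi (8.54 to 11.7 CPM) than at baseline (16.7 to 18.4 CPM). Its genes did not move together with FSK, where COL1A1 went to 6, 6.29 and 7.26 CPM from 17.1, 15.8 and 16.4 CPM and LUM to 5.46, 4.1 and 4.26 CPM from at most 0.145 CPM in all other libraries. The leukocyte list's CD68 was 0.182, 0.147 and 0.0941 CPM in baseline libraries, 0.401, 0.397 and 0.331 CPM with EZH2i, 0.824, 0.497 and 0.418 CPM with CBPi and 0.904, 1.08 and 0.807 CPM with FSK. The part of these marker genes in the results was not tested. In bulk RNA, fewer cells that express a gene and less RNA of it per cell cannot be told apart.

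More members fell than rose with either inhibitor, and the counts in each direction were close to even with forskolin under TMM scaling. With EZH2i 8 of the 31 members rose and 14 fell, where 29.5% of all genes tested rose and 28.3% fell. With CBPi 8 rose and 19 fell, where 29.8% of all genes rose and 29% fell. With FSK 11 rose and 10 fell, where 25.5% of all genes rose and 25.1% fell. Past 1.5-fold, 4 members rose and 3 fell with EZH2i (6.62% and 4.79% of all genes), 5 rose and 6 fell with CBPi (6.09% and 6.14%), and 4 rose and 2 fell with FSK (5.34% and 6.45%). The members' median log2 fold change was -0.20 under EZH2i, -0.28 under CBPi and -0.04 under FSK, against 0.024, 0.015 and 0.015 for all genes tested. The 3 comparisons share the baseline libraries, so their values are only set side by side. The FSK counts depend on the scaling. With library size alone in place of TMM, which shifts the median of all genes by -0.069 on the log2 scale, 16 members fell with FSK, HK1, PFKFB3, GAPDH, PGK1, SLC2A3 and PDK1 being the 6 added, and the share of higher genes among all FSK calls went from 50.5% to 39.7%. GPI, PKM and PDK4 were then no longer called higher with FSK, so the counts were not close to even under that scaling.

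**Figure D1:**
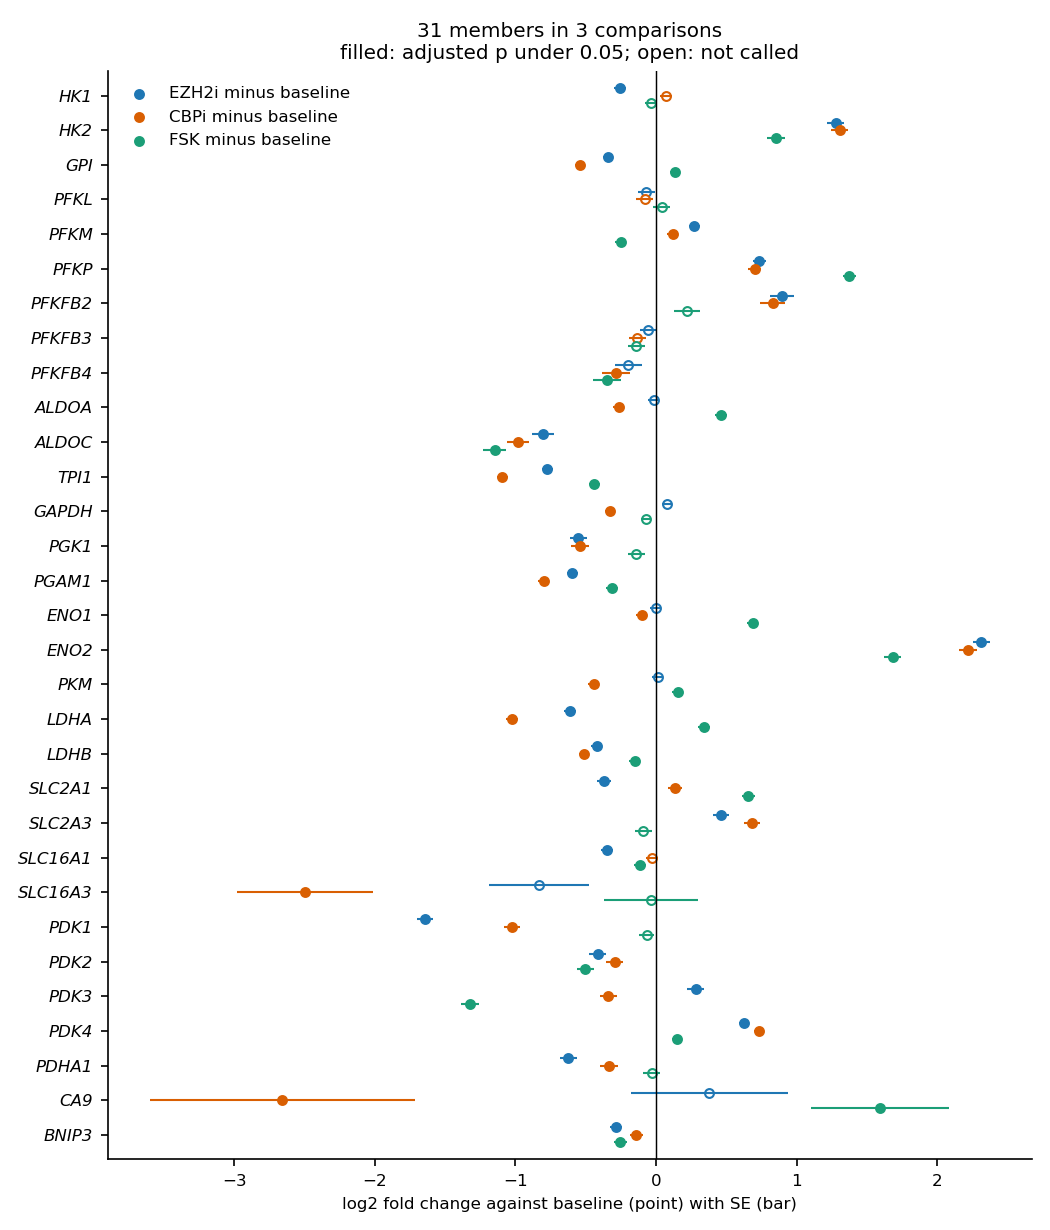
Log2 fold change of each of the 31 members against baseline (x axis; points, with bars for the SE), by treatment (colours), ordered along the pathway. Filled points passed the test; ENO2, HK2 and PFKP lie to the right in all 3 comparisons, ALDOC lies to the left in all 3, and LDHA lies on opposite sides for FSK and the inhibitors.

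HK2, PFKP, ENO2 and PDK4 rose with all 3 treatments. ALDOC, TPI1, PGAM1, LDHB, PDK2 and BNIP3 fell with all 3. LDHA and GPI fell with both inhibitors and rose with FSK. ALDOA, ENO1, PKM and CA9 fell with CBPi and rose with FSK, and were not called with EZH2i. PFKL and PFKFB3 were called in 0 of the 3 comparisons.

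Promoter sequences were read from RefSeq (GRCh38.p14), which held a start for 28 of the 31 members in 56 windows of 300 bases, 250 before and 50 after a start. PFKFB2, SLC2A3 and SLC16A1 were not matched. The motifs searched, all on both strands, were ACGTG, the core of the hypoxia response element, CACGTG, the E-box, which contains that core, TGACGTCA, the cAMP response element, and TGATGNAAT, the amino acid response element. ACGTG was found in 22 of the 56 member windows (39.3%), and in 21.4% of all 35116 windows. CACGTG was found in 14.3% of member windows and 7.26% of all windows, and TGACGTCA in 1.79% and 1.85%, the 1 member being LDHA. TGATGNAAT was found in 3.57% of member windows and in 0.991% of all windows. The member windows with it are 2 overlapping windows of HK1 that hold the same site. By gene, 18 of the 28 matched members held ACGTG at any start, and 24.9% of all 27305 genes did. Members had 56 windows for 28 genes, and all genes 35116 windows for 27305. A member thus had more starts to search on average, and the by-gene values are not on an equal footing. The sequences below belong to the members whose values carry the results: HK2, PFKP and ENO2, which rose with all 3 treatments, ALDOC, which fell with all 3, PDK1, which fell with both inhibitors, and LDHA, which moved in opposite directions. They are written 5′ to 3′ on the gene's strand, with motif matches in capitals. Only bases outside annotated exons are shown at length, and elsewhere 30 bases around a match. Not every start or match of these genes is printed. The other starts of PFKP, PDK1 and LDHA held no match, and the other start of HK2 held ACGTG 2 times. Further ACGTG matches at the printed LDHA start are left out.
HK2, chr2:74834920-74835169, plus strand: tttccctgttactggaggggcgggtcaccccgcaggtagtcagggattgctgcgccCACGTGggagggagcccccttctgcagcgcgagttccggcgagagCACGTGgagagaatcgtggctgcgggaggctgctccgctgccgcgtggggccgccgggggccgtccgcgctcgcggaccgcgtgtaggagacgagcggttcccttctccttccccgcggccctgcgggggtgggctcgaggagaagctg
PFKP, chr10:3068939-3069188, plus strand: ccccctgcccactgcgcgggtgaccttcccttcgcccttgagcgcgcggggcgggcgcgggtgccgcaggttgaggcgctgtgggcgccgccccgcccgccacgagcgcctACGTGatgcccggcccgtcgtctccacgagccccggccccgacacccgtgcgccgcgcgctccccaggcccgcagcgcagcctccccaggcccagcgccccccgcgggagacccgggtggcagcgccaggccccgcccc
LDHA, distal stretch, chr11:18394313-18394387, plus strand: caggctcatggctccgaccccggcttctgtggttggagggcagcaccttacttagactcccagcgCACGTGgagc
LDHA, cAMP element, chr11:18394501-18394530, plus strand: gccccccccgcTGACGTCAgcatagctgtt
ENO2, chr12:6914449-6914478, plus strand: cacccgcgctcgtACGTGcgcctccgccgg
PDK1, chr2:172556060-172556089, plus strand: ccctgctgcccgcCACGTccctCACGTacc
ALDOC, distal site, chr17:28577116-28577145, minus strand: aagtgcccggCACGTGgtaaagggattgtg
ALDOC, proximal site, chr17:28576907-28576936, minus strand: cccccggaggagtCACGTagctctgcgaca
The HK2 stretch holds a pair of E-boxes, and ALDOC, which fell, holds the same core as HK2 and ENO2, which rose. A match is a description of the letters only. Several of these genes have more than 1 start, and which start the cells use was not measured.

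Hexokinase, the first enzyme of the pathway, traps glucose in the cell as glucose 6-phosphate. HK2 (chr2:74833981-74893359 in GRCh38), the inducible isoform that binds mitochondria, rose with all 3 treatments. Its level was 17.4, 17.1 and 15.6 CPM in the baseline libraries, 40.3, 40.6 and 40.9 CPM with EZH2i, 40.7, 42 and 41.5 CPM with CBPi and 29.7, 32.5 and 28.4 CPM with FSK. Every treated library lay above every baseline library, and the FSK libraries lay below those of both inhibitors. The log2 fold change of HK2 was 1.28 ± 0.061, adjusted p = 6.32e-13 with EZH2i, 1.31 ± 0.062, adjusted p = 4.94e-13 with CBPi and 0.85 ± 0.063, adjusted p = 5.41e-10 with FSK. HK1, the isoform that most tissues express at a steady level, was 96.4, 99.1 and 97.6 CPM in baseline libraries, 79.4, 84.5 and 81.1 CPM with EZH2i, 105, 104 and 99.3 CPM with CBPi and 96.4, 93.6 and 96.6 CPM with FSK. HK1 fell with EZH2i (-0.26 ± 0.043), and its differences of 0.07 with CBPi and -0.03 with FSK were not called. Within each library, the share of HK2 in the summed level per kilobase of HK1 and HK2 was 15.1% ± 0.8 at baseline, 34% ± 0.68 under EZH2i, 29.5% ± 0.8 under CBPi and 24.7% ± 1.6 under FSK (SD, n = 3). HK1 stayed the more abundant of the pair per kilobase in every group. GPI, which converts glucose 6-phosphate to fructose 6-phosphate, fell with EZH2i (-0.34 ± 0.036) and CBPi (-0.54 ± 0.036) from 432 ± 7.5 CPM, and rose with FSK (0.13 ± 0.036), a rise that was not called with library size alone (0.06, adjusted p = 0.142). AC092073.1, on the same strand, shares 5.07% of the exon bases of GPI and had 79.1 CPM at baseline.

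Phosphofructokinase commits fructose 6-phosphate to glycolysis, and its 3 genes encode the platelet (PFKP), muscle (PFKM) and liver (PFKL) subunits of a tetramer. PFKP (chr10:3066333-3137712) rose with all 3 treatments, most with FSK. PFKP was 76.1, 80.8 and 77.7 CPM in baseline libraries, 128, 132 and 130.2 CPM with EZH2i, 135, 119 and 128 CPM with CBPi and 201, 202 and 205 CPM with FSK, and the 4 groups overlapped only between the inhibitors. The log2 fold change of PFKP was 0.73 ± 0.046, adjusted p = 4.01e-11 with EZH2i, 0.70 ± 0.046, adjusted p = 8.05e-11 with CBPi and 1.37 ± 0.046, adjusted p = 1.74e-15 with FSK. PFKM was 170.1, 176 and 174 CPM in baseline libraries, 201, 214 and 213 CPM with EZH2i, 191, 188 and 186 CPM with CBPi and 142, 147 and 149 CPM with FSK. It rose with EZH2i (0.27 ± 0.039) and fell with FSK (-0.25 ± 0.04), and its rise with CBPi (0.12 ± 0.039) was not called without baseline replicate 1 (0.10, adjusted p = 0.0636), without CBPi replicate 1 (0.11, adjusted p = 0.0524) or without the filter on low counts. PFKL was 114, 111 and 109 CPM in baseline libraries, 101, 111 and 107 CPM with EZH2i, 112, 92.4 and 112 CPM with CBPi and 113, 118 and 114 CPM with FSK, with differences between -0.08 and 0.04 that were not called. Per kilobase, PFKP made up 27.9% ± 0.46 of the 3 subunit genes at baseline, 36.5% ± 0.55 under EZH2i, 37.7% ± 0.61 under CBPi and 52.5% ± 0.42 under FSK. PFKM had the largest share at baseline, 47.4% ± 0.41, and 29% ± 0.31 under FSK, where PFKP had the largest.

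The PFKFB genes encode enzymes that make and break fructose 2,6-bisphosphate, the strongest activator of phosphofructokinase. PFKFB2, known as the heart isoform, rose with both inhibitors. PFKFB2 was 9.07, 10.6 and 8.99 CPM in baseline libraries, 19.1, 16.6 and 17.8 CPM with EZH2i, 16.2, 18.5 and 16.5 CPM with CBPi and 11.2, 11.6 and 10.8 CPM with FSK. The inhibitor libraries all lay above the others, with log2 fold changes of 0.89 ± 0.085, adjusted p = 2.34e-08 with EZH2i and 0.83 ± 0.088, adjusted p = 9.12e-08 with CBPi. With FSK the difference of 0.22 ± 0.093 was not called (adjusted p = 0.0547), and it was called without baseline replicate 2 (0.31, adjusted p = 0.0185) and with a filter of at least 1 CPM in 3 libraries. PFKFB3, the isoform with the highest kinase activity, was 33, 31.1 and 30.7 CPM in baseline libraries, 30.8, 31 and 29.3 CPM with EZH2i, 31.3, 26.9 and 28.4 CPM with CBPi and 27.9, 29.6 and 28.4 CPM with FSK, and was not called in any of the 3 comparisons. It was called lower with CBPi without CBPi replicate 1 (-0.19, adjusted p = 0.015), and with FSK under RLE size factors (-0.15, adjusted p = 0.0494) or library size alone. PFKFB4 was 12.8, 14 and 11.8 CPM in baseline libraries, 11.9, 10.1 and 11.8 CPM with EZH2i, 10.5, 11.9 and 9.5 CPM with CBPi and 9.62, 10.9 and 9.86 CPM with FSK. PFKFB4 fell with FSK (-0.35 ± 0.1) and with CBPi (-0.28 ± 0.099), and the CBPi fall was not called without baseline replicate 2 (-0.22, adjusted p = 0.108) or CBPi replicate 3 (-0.20, adjusted p = 0.114). Its EZH2i difference of -0.20 ± 0.095 was not called, and was called without baseline replicate 3 (-0.26, adjusted p = 0.0462) or in a fit of the 2 groups alone.

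**Figure D2:**
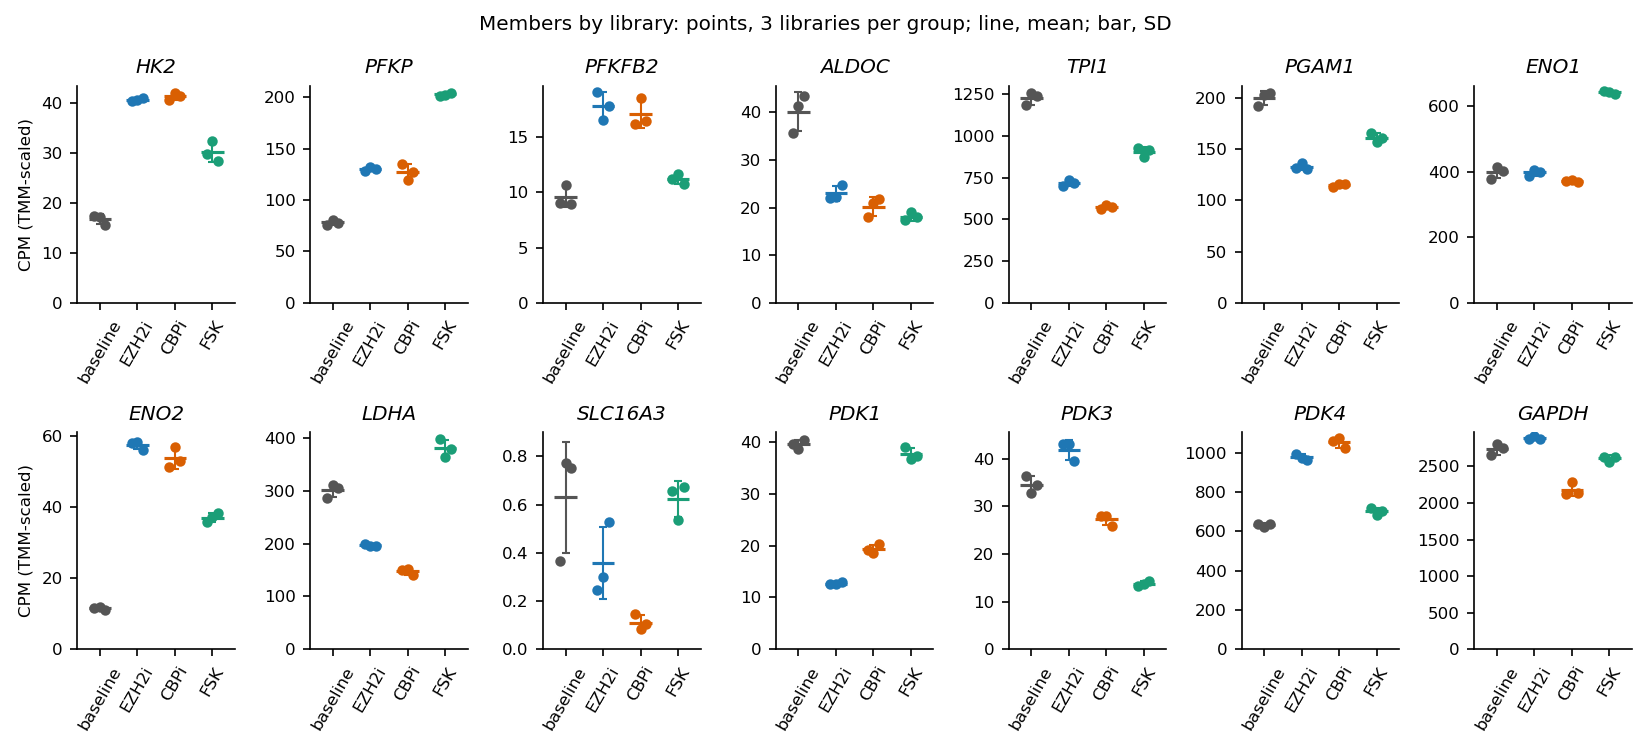
Level (y axis, TMM-scaled CPM from 0) of the 13 members past 1.5-fold in at least 1 comparison and of GAPDH, by group (x axis); points are libraries, the line is the mean and the bar the SD of 3 libraries. HK2, PFKP and ENO2 sit above baseline in every treated library, ALDOC, TPI1 and PGAM1 sit below it, and the scatter is widest for SLC16A3, which stays under 1 CPM.

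The middle of the pathway runs from aldolase, which splits the 6-carbon sugar, to pyruvate kinase. Of its 9 members, 1 rose and 4 fell with EZH2i, 1 rose and 8 fell with CBPi, and 4 rose and 3 fell with FSK, where 29.5% of all genes tested rose and 28.3% fell with EZH2i, 29.8% and 29% with CBPi and 25.5% and 25.1% with FSK. ALDOC (chr17:28573115-28577264), the brain-type aldolase, fell with all 3 treatments. ALDOC was 35.6, 41.3 and 43.5 CPM in baseline libraries, 22, 22.2 and 24.8 CPM with EZH2i, 18, 20.9 and 21.7 CPM with CBPi and 17.3, 19 and 18 CPM with FSK, and no treated library reached the lowest baseline library. The log2 fold change of ALDOC was -0.81 ± 0.077, adjusted p = 2.53e-08 with EZH2i, -0.98 ± 0.08, adjusted p = 2.08e-09 with CBPi and -1.15 ± 0.082, adjusted p = 2.65e-10 with FSK. ALDOA, the muscle-type aldolase that most dividing cells use, was 386, 427 and 410.5 CPM in baseline libraries, 397, 405 and 407 CPM with EZH2i, 342, 329 and 346 CPM with CBPi and 565, 569 and 551 CPM with FSK. ALDOA fell with CBPi (-0.27 ± 0.04), rose with FSK (0.46 ± 0.04) and was not called with EZH2i (-0.02). The ALDOC share of both aldolases per kilobase was 12.6% ± 0.77 at baseline, 7.72% ± 0.41 under EZH2i, 8.04% ± 0.75 under CBPi and 4.52% ± 0.2 under FSK. An annotated gene on the same strand, AC093512.2, shares 42.3% of the exon bases of ALDOA. Its own row held 407 CPM at baseline, 402 CPM with EZH2i, 338 CPM with CBPi and 561 CPM with FSK. The ALDOA row held nearly the same means, 408, 403, 339 and 562 CPM. How reads were divided between these rows, which is not given in the sources used here, thus bears on the ALDOA level and on the ALDOC share. With both rows added, the ALDOC share was 6.72% at baseline, 4.02% under EZH2i, 4.2% under CBPi and 2.32% under FSK, in the same order against baseline.

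TPI1, which interconverts the 3-carbon sugars, and PGAM1, which shifts a phosphate within 3-phosphoglycerate, fell with all 3 treatments, most with CBPi. TPI1 was 1184, 1257 and 1241 CPM in baseline libraries, 700.5, 735 and 717 CPM with EZH2i, 564, 586 and 574 CPM with CBPi and 929, 872 and 916 CPM with FSK. The 4 groups of TPI1 did not overlap, and the log2 fold change was -0.77 ± 0.038, adjusted p = 1.19e-12 with EZH2i, -1.09 ± 0.039, adjusted p = 5.37e-15 with CBPi and -0.44 ± 0.038, adjusted p = 6.46e-09 with FSK. Pseudogene rows of TPI1 held 10.5% to 15.1% of its count. PGAM1 was 192, 203 and 205 CPM in baseline libraries, 131, 136 and 130.3 CPM with EZH2i, 113, 116 and 116 CPM with CBPi and 166, 157 and 160.4 CPM with FSK. Its groups did not overlap either, with log2 fold changes of -0.59 ± 0.041, -0.80 ± 0.041 and -0.31 ± 0.041. PGAM1 has a near-identical copy, PGAM4, so the split between them is uncertain. PGK1, which makes the first ATP of the pathway, fell with EZH2i (-0.55 ± 0.061) and CBPi (-0.54 ± 0.062) from 449.7 ± 31 CPM. With FSK its difference of -0.14 was not called, and it was called as a fall under 4 of the alternatives, among them without baseline replicate 1 (-0.19, adjusted p = 0.0186).

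GAPDH, which oxidises glyceraldehyde 3-phosphate and is often used as a reference gene, had the highest level per kilobase of all members in every group, 1144 ± 34 CPM per kilobase at baseline. GAPDH was 2652, 2813 and 2755 CPM in baseline libraries, 2872, 2923 and 2874 CPM with EZH2i, 2129, 2289 and 2133 CPM with CBPi and 2635, 2560.4 and 2631 CPM with FSK. It fell with CBPi (-0.33 ± 0.037, adjusted p = 2.78e-07), and the differences of 0.08 with EZH2i and -0.07 with FSK were not called. Both were called with library size alone, and the EZH2i difference also under 3 other alternatives; with library size alone they were 0.10 with EZH2i (adjusted p = 0.0263) and -0.14 with FSK (adjusted p = 0.00325). The CBPi libraries all lay below those of the other groups, and the EZH2i libraries all lay above them.

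Enolase makes phosphoenolpyruvate, and its gene ENO2 (chr12:6913745-6923698), which encodes the neuron-specific enolase used as a neuroendocrine marker, had the largest rise of all members with both inhibitors and, beside CA9 (1.60 ± 0.49), the largest with FSK. Without baseline replicate 2 the FSK value of CA9 was 2.65, above that of ENO2. ENO2 was 11.7, 11.8 and 11 CPM in baseline libraries, 58, 58.2 and 56.1 CPM with EZH2i, 51.2, 57 and 52.9 CPM with CBPi and 35.8, 37.2 and 38.2 CPM with FSK. Every treated library was above every baseline library, and FSK lay below both inhibitors. Of the chromaffin markers, CHGA was 4.15, 4.27 and 3.53 CPM in baseline libraries, 4.26, 3.74 and 3.41 CPM with EZH2i, 5.86, 6.51 and 6.09 CPM with CBPi and 4.93, 5.3 and 5.56 CPM with FSK, and TH, DBH and PNMT were near 0. The log2 fold change of ENO2 was 2.31 ± 0.061, adjusted p = 5.55e-17 with EZH2i (4.97-fold), 2.22 ± 0.061, adjusted p = 1.4e-16 with CBPi (4.65-fold) and 1.68 ± 0.063, adjusted p = 9.95e-15 with FSK (3.21-fold). ENO1, the enolase of most tissues, was 379.7, 416 and 402 CPM in baseline libraries, 388, 407 and 401 CPM with EZH2i, 372, 374 and 369 CPM with CBPi and 647, 646 and 638 CPM with FSK. ENO1 rose with FSK (0.69 ± 0.039, adjusted p = 5.57e-12) and was not called with EZH2i (0.00). Its small fall with CBPi (-0.10 ± 0.039, adjusted p = 0.0277) was not called under 6 alternatives, among them without baseline replicate 2 (-0.07, adjusted p = 0.162) or replicate 3 and without CBPi replicate 1 or 3. The ENO2 share of ENO1 and ENO2 per kilobase was 3.4% ± 0.2 at baseline, 14.9% ± 0.42 under EZH2i, 15% ± 0.66 under CBPi and 6.56% ± 0.25 under FSK. ENO1 remained the main enolase by this measure in every library. PKM, pyruvate kinase, fell with CBPi (-0.44 ± 0.039) from 3812 ± 194 CPM to 2802 ± 30.4 CPM and rose with FSK (0.15 ± 0.039), a rise not called with library size alone (0.08, adjusted p = 0.0714). Its splice forms M1 and M2 share 1 row of the table and were not told apart.

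Lactate dehydrogenase interconverts pyruvate and lactate as a tetramer of 2 subunit types, and LDHA, the muscle-type subunit, is the one linked to lactate output. LDHA (chr11:18394388-18408425) moved in opposite directions under the inhibitors and forskolin. LDHA was 286, 311 and 304 CPM in baseline libraries, 199, 196 and 195 CPM with EZH2i, 150.1, 153 and 140.3 CPM with CBPi and 397, 364 and 379 CPM with FSK. The 4 groups did not overlap. LDHA fell with EZH2i (-0.61 ± 0.044, adjusted p = 4.01e-10) and CBPi (-1.03 ± 0.045, adjusted p = 1.61e-13) and rose with FSK (0.34 ± 0.044, adjusted p = 1.74e-06). LDHB, the heart-type subunit, was 718, 765 and 743 CPM in baseline libraries, 550.0, 559 and 552 CPM with EZH2i, 524, 526 and 509.7 CPM with CBPi and 687, 643 and 673 CPM with FSK. It fell with all 3 treatments, by log2 fold changes of -0.42 ± 0.038, -0.51 ± 0.038 and -0.15 ± 0.037. LDHB was the more abundant subunit per kilobase in every library, and the LDHA share was 16.7% ± 0.19 at baseline, 14.9% ± 0.19 under EZH2i, 12.3% ± 0.29 under CBPi and 22% ± 0.24 under FSK. LDHB shares 33.4% of its exon bases with AC010197.2 on the same strand, whose row held 725 CPM at baseline. With that row added to LDHB, the LDHA share was 9.18% at baseline, 8.15% under EZH2i, 6.63% under CBPi and 12.5% under FSK, so its order across groups was as before. The summed level of both genes was 1042 ± 36 CPM at baseline, 750.2 ± 4.2 CPM with EZH2i, 668 ± 16 CPM with CBPi and 1048 ± 39 CPM with FSK. Left out of this sum, the AC010197.2 row held 725 CPM at baseline, 542 CPM with EZH2i, 506 CPM with CBPi and 652 CPM with FSK.

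**Figure D3:**
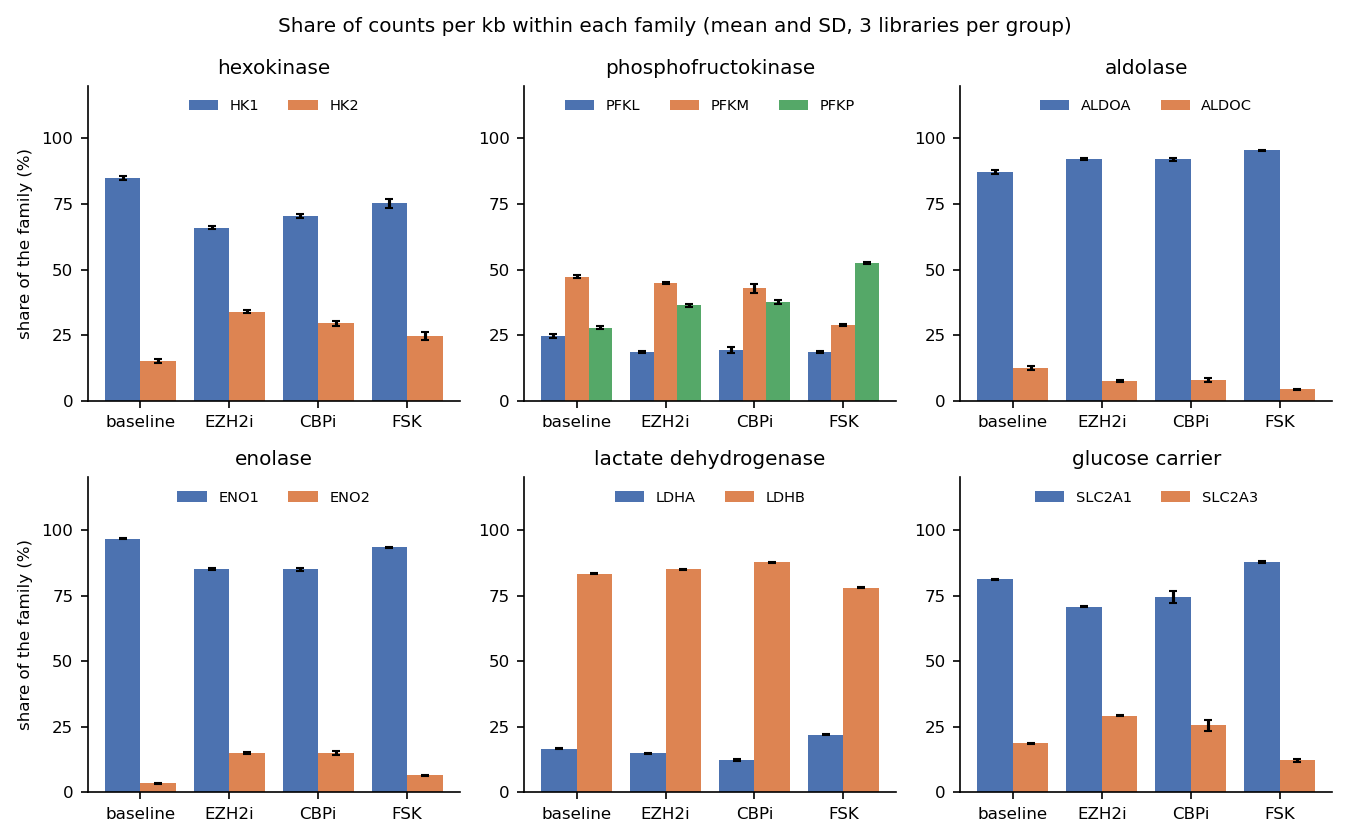
Share (y axis, percent of the summed counts per kilobase of the family) of each isoform in 6 families, by group (x axis); bars are means from 0 and error bars the SD of 3 libraries. ENO2 goes from 3.4% at baseline to 14.9% with EZH2i and 15% with CBPi, PFKP is the largest share of its family with FSK alone at 52.5%, and the LDHA share is lowest with CBPi (12.3%) and highest with FSK (22%). The ALDOA and LDHB bars leave out the overlapping rows AC093512.2 and AC010197.2.

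Ratios of 10 isoform pairs were compared with baseline within libraries, 30 ratios in all, by a two-sided exact permutation test. With 3 libraries against 3 the smallest p this test can give is 0.1, so the threshold could not be reached. For 26 of the 30 ratios, the treated and baseline libraries did not overlap, each with exact p = 0.1 and an adjusted exact p of 0.1154. Of all genes tested, 29.5% rose and 28.3% fell with EZH2i, 29.8% and 29% with CBPi and 25.5% and 25.1% with FSK. How often ratios of other gene pairs would not overlap was not counted, so the 26 are not read as a result about isoforms. The 4 that overlapped were SLC16A3 to SLC16A1 with EZH2i and FSK and PFKFB4 to PFKFB3 with EZH2i and CBPi. The log2 ratio of ENO2 to ENO1 differed from baseline by 2.32 with EZH2i, 2.32 with CBPi and 0.99 with FSK, and that of HK2 to HK1 by 1.54, 1.23 and 0.88. The LDHA to LDHB ratio differed by -0.19, -0.51 and 0.49 in the same order, and the SLC2A3 to SLC2A1 ratio by 0.83, 0.55 and -0.75. The SLC2A3 ratio leaves out the near-identical copy SLC2A14, which rose with FSK, so its FSK value is uncertain.

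Glucose enters through GLUT1 (SLC2A1) and GLUT3 (SLC2A3), and lactate crosses the membrane through MCT1 (SLC16A1) and MCT4 (SLC16A3), the last known as the export form of glycolytic cells. SLC2A1 was 114, 118 and 118 CPM in baseline libraries, 91, 89.4 and 89.8 CPM with EZH2i, 134, 117 and 133 CPM with CBPi and 185, 179 and 186 CPM with FSK. It fell with EZH2i (-0.37 ± 0.049, adjusted p = 1.8e-06) and rose with FSK (0.66 ± 0.048, adjusted p = 4.35e-10). A rise with CBPi (0.13 ± 0.049) was not called in a fit of the 2 groups alone or without baseline replicate 1 (0.11, adjusted p = 0.0907) or 2 (0.14, adjusted p = 0.0507) or CBPi replicate 1 (0.10, adjusted p = 0.126) or 3 (0.10, adjusted p = 0.117), and the CBPi and baseline libraries overlapped. SLC2A3 was 33.4, 35.6 and 35.2 CPM in baseline libraries, 48.4, 47 and 47.9 CPM with EZH2i, 57.9, 57.7 and 52 CPM with CBPi and 34.4, 30.8 and 32.7 CPM with FSK. It rose with EZH2i (0.46 ± 0.056, adjusted p = 7.71e-07) and CBPi (0.68 ± 0.057, adjusted p = 2.75e-09) and was not called with FSK (-0.09). SLC2A3 has pseudogene rows at 20.6% to 30.9% of its count and a near-identical copy, SLC2A14, so its level is uncertain. The SLC2A3 share of both carriers per kilobase was 18.8% ± 0.21 at baseline, 29.2% ± 0.16 under EZH2i, 25.5% ± 2.2 under CBPi and 12.2% ± 0.45 under FSK. This share leaves out SLC2A14, which was 2.59 CPM per kilobase at baseline, 2.23 under EZH2i, 4.34 under CBPi and 6.065 under FSK. SLC2A3 itself was 5.72, 7.87, 9.2 and 5.38 CPM per kilobase. SLC2A14 thus rose where the SLC2A3 share was lowest, and that lower share with FSK is uncertain.

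SLC16A1 was the main lactate carrier gene of these cells, at 19.7 ± 0.076 CPM per kilobase at baseline against 0.0701 ± 0.026 for SLC16A3. SLC16A1 was 104, 105 and 105 CPM in baseline libraries, 83, 81.3 and 82.1 CPM with EZH2i, 106, 103 and 99.3 CPM with CBPi and 93.8, 95.1 and 100.3 CPM with FSK. It fell with EZH2i (-0.35 ± 0.042) and was not called with CBPi (-0.03). The fall with FSK (-0.12 ± 0.042) was not called without the filter on low counts, nor without baseline replicate 2 or 3 or FSK replicate 1 or 2, with adjusted p between 0.0511 and 0.105. SLC16A3 was at 0.365, 0.773 and 0.753 CPM in baseline libraries, 0.247, 0.298 and 0.53 CPM with EZH2i, 0.145, 0.0829 and 0.104 CPM with CBPi and 0.657, 0.538 and 0.672 CPM with FSK. These are 45 counts in the sum of baseline, 33 under EZH2i, 8 under CBPi and 44 under FSK. SLC16A3 fell with CBPi (-2.50 ± 0.48, adjusted p = 0.000164), and the ratio of depth-scaled counts to baseline was 0.17 with a 95% exact interval of 0.0693 to 0.365, which covers counting error only. Its EZH2i difference of -0.83 ± 0.35 was at the threshold (adjusted p = 0.0503) and was called without baseline replicate 1 (-1.09, adjusted p = 0.0133), without EZH2i replicate 3 (-1.22, adjusted p = 0.0156) or with RLE size factors (-0.84, adjusted p = 0.0489). CSNK1D, on the other strand, shares 5.36% of the exon bases of SLC16A3 and had 176 CPM at baseline, and the strand setting of the counting is not given in the sources used here.

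Pyruvate dehydrogenase kinases phosphorylate the E1α subunit, PDHA1, and switch the complex off, and the 4 kinases moved apart. PDK1 (chr2:172555373-172608669), the kinase best known as a HIF target, fell with both inhibitors and did not pass the test with FSK. PDK1 was 39.6, 38.6 and 40.4 CPM in baseline libraries, 12.5, 12.5 and 12.9 CPM with EZH2i, 19.2, 18.6 and 20.2 CPM with CBPi and 39, 36.8 and 37.3 CPM with FSK. The inhibitor libraries lay below all others, with log2 fold changes of -1.64 ± 0.058, adjusted p = 5.59e-15 with EZH2i and -1.03 ± 0.056, adjusted p = 5.25e-12 with CBPi, and FSK overlapped baseline (-0.07). PDK3 was 36.3, 32.8 and 34.4 CPM in baseline libraries, 43.1, 43 and 39.5 CPM with EZH2i, 27.9, 27.9 and 26 CPM with CBPi and 13.2, 13.8 and 14.3 CPM with FSK. It rose with EZH2i (0.28 ± 0.058) and fell with CBPi (-0.34 ± 0.061) and FSK (-1.32 ± 0.066, adjusted p = 9.23e-13), and its 4 groups did not overlap. PDK4, a kinase known to rise in fasting and with fat oxidation, was by far the highest of the 4 per kilobase, 90.8% ± 0.31 of their sum at baseline. PDK4 was 639, 620.0 and 637 CPM in baseline libraries, 992, 971 and 963 CPM with EZH2i, 1059, 1075 and 1022 CPM with CBPi and 716, 685 and 705 CPM with FSK. Its log2 fold change was 0.63 ± 0.036, adjusted p = 1.09e-11 with EZH2i, 0.74 ± 0.036, adjusted p = 8.13e-13 with CBPi and 0.15 ± 0.036 with FSK, the last not called with library size alone (0.08, adjusted p = 0.0593). PDK4 made up 95.3% ± 0.16 of the 4 kinases under EZH2i, 95.7% ± 0.23 under CBPi and 94.1% ± 0.051 under FSK. PDK2 was 45.5, 47.9 and 51.5 CPM in baseline libraries, 36, 37.8 and 34.7 CPM with EZH2i, 41.7, 37.1 and 39.6 CPM with CBPi and 35.3, 32.6 and 34.3 CPM with FSK, and fell with all 3 treatments (-0.42 ± 0.059, -0.29 ± 0.06 and -0.50 ± 0.061). PDHA1, the target of these kinases, fell with EZH2i (-0.62 ± 0.061) and CBPi (-0.33 ± 0.061) from 66.8 ± 3.6 CPM and was not called with FSK (-0.03). On the other strand, SAMD14 shares 38.6% of the exon bases of PDK2 and had 15.6 CPM at baseline, 21.1 CPM with EZH2i, 13.1 CPM with CBPi and 7.13 CPM with FSK. MAP3K15 shares 21.3% of those of PDHA1, also on the other strand, and had 9.16 CPM at baseline, 3.49 CPM with EZH2i, 2.95 CPM with CBPi and 8.16 CPM with FSK. MAP3K15 was thus lower with both inhibitors, where PDHA1 fell. SAMD14 was lower with CBPi and FSK and higher with EZH2i, while PDK2 fell with all 3 treatments. The part of both genes in the PDK2 and PDHA1 counts was not tested.

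CA9, a membrane carbonic anhydrase, and BNIP3, a mitophagy receptor, are commonly read as markers of hypoxia, and CA9 was nearly absent from these cells. CA9 was at 0.0912, 0.368 and 0.0941 CPM in baseline libraries, 0.185, 0.265 and 0.331 CPM with EZH2i, 0, 0.0829 and 0 CPM with CBPi and 0.493, 0.579 and 0.762 CPM with FSK. In counts, these are 2, 10 and 2 at baseline, 6, 8 and 10 under EZH2i, 0, 2 and 0 under CBPi, and 12, 14 and 17 under FSK. The sum with FSK, 43 against 14, gave a depth-scaled ratio of 3.05 (95% exact interval 1.64 to 6.04), and that with CBPi, 2 against 14, gave 0.137 (0.0151 to 0.595). CA9 was called higher with FSK (1.60 ± 0.49, adjusted p = 0.0102) and lower with CBPi (-2.66 ± 0.94, adjusted p = 0.0205). The CBPi call was lost without baseline replicate 2 (-1.60, adjusted p = 0.247), CBPi replicate 1 (-2.25, adjusted p = 0.0607) or CBPi replicate 3 (-2.03, adjusted p = 0.0897). The FSK call was lost without baseline replicate 1 (1.28, adjusted p = 0.0513) or 3 (1.30, adjusted p = 0.0509). Single libraries also moved the values away from 0. Without baseline replicate 2, which holds 10 of the 14 baseline counts, the FSK value was 2.65, and without CBPi replicate 2 the CBPi libraries left are at 0 counts and the fitted value of -5.39 is no measure of size. ARHGEF39, on the other strand, shares 38.5% of the exon bases of CA9 and had 32 CPM at baseline, 23.1 CPM with EZH2i, 14.8 CPM with CBPi and 25.4 CPM with FSK, and its part in the CA9 counts was not tested. BNIP3 fell from 110.4 ± 0.7 CPM with EZH2i (-0.29 ± 0.044), CBPi (-0.14 ± 0.044) and FSK (-0.25 ± 0.044), and the CBPi fall was not called without CBPi replicate 1 (-0.11, adjusted p = 0.0542). Pseudogene rows of BNIP3 held 10.4% to 11.8% of its count.

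Direct tests between the treatments separated most members. The drugs differ in dose, and FSK also in exposure time, so these tests compare the groups as they were treated. Between EZH2i and CBPi 20 of the 31 members were called, 12 higher and 8 lower with EZH2i, where 43.9% of all genes were called. Between EZH2i and FSK 25 were called, 9 higher and 16 lower with EZH2i, where 61.6% of all genes were called. Between CBPi and FSK 26 were called, 10 higher and 16 lower with CBPi, where 58.8% of all genes were called. HK2, PFKP, PFKFB2 and ENO2 were not called between the inhibitors, with log2 differences of EZH2i minus CBPi of -0.03 ± 0.055, 0.03 ± 0.045, 0.06 ± 0.079 and 0.10 ± 0.051. LDHA was higher with EZH2i than with CBPi (0.41 ± 0.045, adjusted p = 3.28e-07), and lower than with FSK in both (EZH2i minus FSK -0.95 ± 0.044, CBPi minus FSK -1.37 ± 0.045). SLC2A1 was lower with EZH2i than with CBPi (-0.50 ± 0.049, adjusted p = 6.53e-08). PDK1 was lower with EZH2i than with CBPi (-0.62 ± 0.061, adjusted p = 1.06e-07), while PDK3 was higher (0.62 ± 0.059, adjusted p = 5.25e-08). GAPDH and PKM were higher with EZH2i than with CBPi, by 0.40 ± 0.038 and 0.46 ± 0.039. Against FSK, PFKP was lower with both inhibitors (-0.64 ± 0.044 and -0.67 ± 0.045) and ENO2 higher (0.63 ± 0.052 and 0.54 ± 0.053).

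The HIF factors and oxygen sensors were read as a list of their own, of which 9 of 10 genes were tested. Of these 6 rose and 0 fell with EZH2i, 3 rose and 2 fell with CBPi and 3 rose and 5 fell with FSK, where 29.5% of all genes tested rose and 28.3% fell with EZH2i, 29.8% and 29% with CBPi and 25.5% and 25.1% with FSK. The CBPi counts are near those shares. HIF1A, the first of the oxygen-labile subunits, rose with EZH2i (0.25 ± 0.038), CBPi (0.13 ± 0.038) and FSK (0.25 ± 0.038) from 408 ± 6.2 CPM. HIF is controlled mainly at the level of protein, which was not measured. EPAS1, which encodes HIF-2α, rose with EZH2i (0.77 ± 0.075) and FSK (1.14 ± 0.075) from 9.98 ± 0.47 CPM and was not called with CBPi (0.14). The partner ARNT rose with EZH2i (0.27) and CBPi (0.42) and fell with FSK (-0.37), and ARNT2 rose with EZH2i (0.63), fell with FSK (-0.31) and was not called with CBPi (0.07). EGLN3, a prolyl hydroxylase that marks HIF for decay and is itself a HIF target, was at 1.75 ± 0.14 CPM at baseline, 5.73 ± 0.72 CPM with EZH2i, 1.01 ± 0.082 CPM with CBPi and 0.535 ± 0.19 CPM with FSK. It rose with EZH2i (1.71 ± 0.15) and fell with CBPi (-0.78 ± 0.21) and FSK (-1.70 ± 0.25). EGLN1 rose with EZH2i (0.26) and FSK (0.29), and its CBPi difference of 0.07 was not called. EGLN2 fell with CBPi (-0.24) and FSK (-0.31), with an EZH2i difference of -0.12 that was not called. VHL, part of the ligase that degrades HIF, rose with CBPi (0.15), fell with FSK (-0.28) and was not called with EZH2i (-0.03). HIF1AN, the asparaginyl hydroxylase, was not called in any of the 3, with differences of -0.06, -0.11 and -0.05.

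Other hypoxia response genes, a list of 24 tested genes that includes EGLN3, rose more often than they fell with the inhibitors. Of these 13 rose and 3 fell with EZH2i, 12 rose and 3 fell with CBPi and 9 rose and 9 fell with FSK, against 29.5% and 28.3%, 29.8% and 29%, and 25.5% and 25.1% of all genes tested, in the same order. The median log2 fold change was 0.41, 0.28 and -0.09, against 0.024, 0.015 and 0.015 for all genes. NDRG1, a stress-response gene, rose with EZH2i (1.74 ± 0.091), CBPi (1.80 ± 0.092) and FSK (0.61 ± 0.1) from 5.74 ± 0.64 CPM. DDIT4, an inhibitor of mTORC1 signalling, rose with EZH2i (1.02 ± 0.077) and CBPi (2.14 ± 0.075) from 17.4 ± 0.49 CPM and was not called with FSK (0.06). VLDLR, a lipoprotein receptor, fell with EZH2i (-0.68 ± 0.071), CBPi (-0.63 ± 0.073) and FSK (-2.84 ± 0.091) from 32.2 ± 1 CPM. VEGFA, the angiogenic factor most often read as a HIF target and named here after its values were seen, was 179.9 ± 6.9 CPM at baseline, 229 ± 6 CPM with EZH2i, 369.9 ± 7.8 CPM with CBPi and 314 ± 2.6 CPM with FSK. It rose with EZH2i (0.35 ± 0.039), CBPi (1.04 ± 0.039) and FSK (0.80 ± 0.039).

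**Figure D4:**
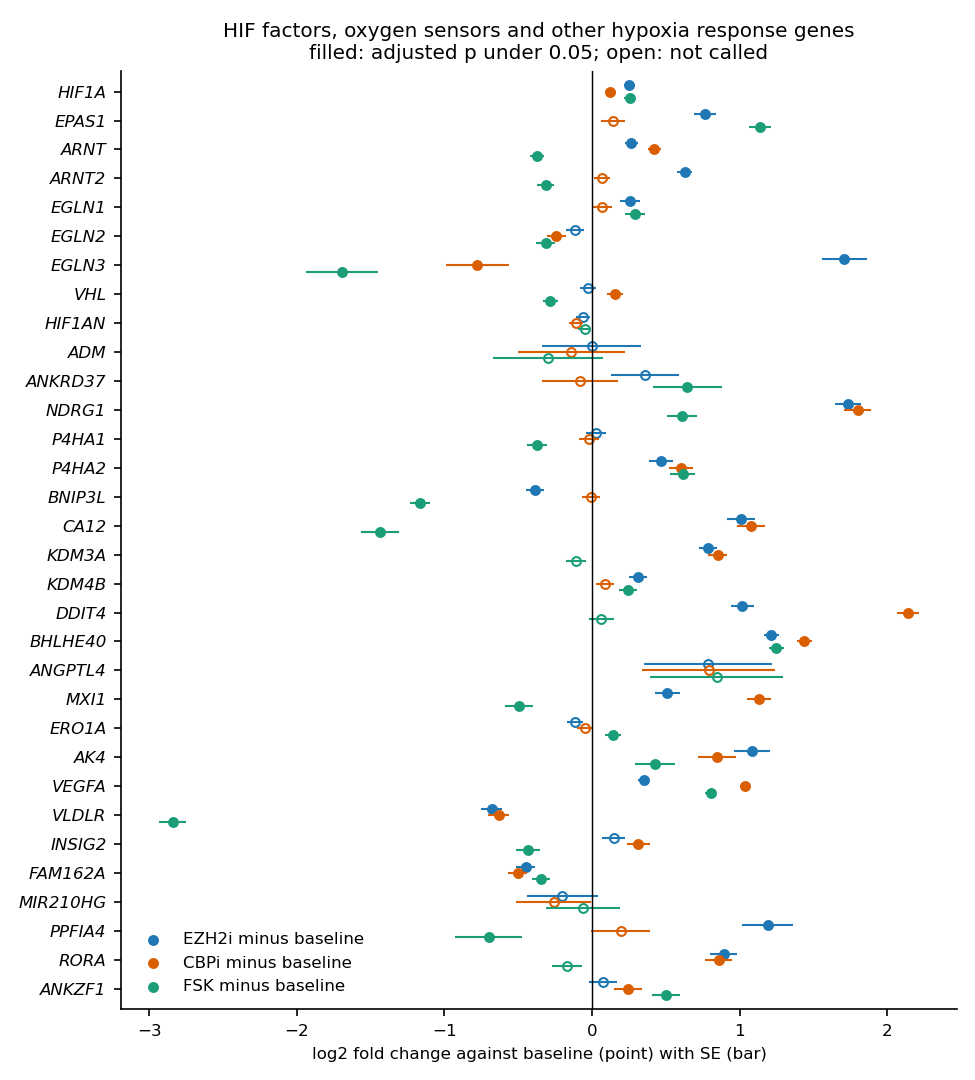
Log2 fold change against baseline (x axis; points, with bars for the SE) of the 9 tested HIF factors and oxygen sensors and of the other hypoxia response genes (EGLN3 is drawn once), by treatment (colours). Filled points passed the test; NDRG1 lies at 1.74 with EZH2i, DDIT4 at 2.14 with CBPi and VLDLR at -2.84 with FSK.

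The other enzymes of glycolysis and its branches were counted from lists, and the counts in each direction stand beside 28.3% to 29.8% of all genes tested with the inhibitors and 25.1% to 25.5% with FSK. Of 24 other glycolytic enzymes and isoforms, 15 were tested. Of these 2 rose and 8 fell with EZH2i, 2 rose and 8 fell with CBPi and 5 rose and 4 fell with FSK. PGAM4 fell with EZH2i (-0.61), CBPi (-0.93) and FSK (-0.22), and cannot be read apart from PGAM1. GPD1L, a glycerol 3-phosphate dehydrogenase, fell with EZH2i (-0.44), CBPi (-0.13) and FSK (-0.73). A list of 17 other genes of hexose and monocarboxylate transport includes BSG and EMB, which are not carriers themselves. Of the 17, 13 were tested, and 3 rose and 5 fell with EZH2i, 3 rose and 6 fell with CBPi and 4 rose and 8 fell with FSK. SLC2A8, an intracellular hexose carrier, rose with EZH2i (1.28 ± 0.067) and CBPi (1.09 ± 0.068) from 76 ± 2.7 CPM and fell with FSK (-0.37 ± 0.07). SLC2A12 rose with EZH2i (1.14 ± 0.13) and fell with CBPi (-0.82 ± 0.17) and FSK (-2.14 ± 0.2) from 3.47 ± 0.38 CPM. SLC2A14 fell with EZH2i (-0.21) and rose with CBPi (0.74) and FSK (1.23), with the same doubt as SLC2A3.

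Pyruvate dehydrogenase genes were also read as a list. Of 8 genes for its subunits and phosphatases other than PDHA1, 7 were tested, and 2 rose and 5 fell with EZH2i, 2 rose and 4 fell with CBPi and 3 rose and 2 fell with FSK. Of all genes tested 28.3% fell with EZH2i, 29% with CBPi and 25.1% with FSK, and 29.5%, 29.8% and 25.5% rose. PDHB, the E1β subunit, fell with EZH2i (-0.99 ± 0.058), CBPi (-0.69 ± 0.058) and FSK (-0.42 ± 0.057) from 89.4 ± 4.7 CPM. DLD, the E3 subunit, fell with EZH2i (-1.01 ± 0.048), CBPi (-0.48 ± 0.047) and FSK (-0.15 ± 0.047) from 142 ± 5.7 CPM. PDP1, the phosphatase that switches the complex on again, rose with all 3 (0.89 ± 0.054, 1.05 ± 0.054 and 1.00 ± 0.054) from 27.8 ± 0.9 CPM, in the same libraries in which PDK4 rose.

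Glucose can also be sensed, made anew or diverted, and these lists of at most 7 genes stand beside the same shares of all genes. Of 5 genes of glucose sensing by MondoA, a transcription factor that reads glucose 6-phosphate, 3 rose and 2 fell with EZH2i, 1 rose and 2 fell with CBPi and 3 rose and 1 fell with FSK. TXNIP, its best-known target and an inhibitor of glucose uptake, rose with EZH2i (0.43 ± 0.042) and fell with CBPi (-0.40 ± 0.043) and FSK (-0.90 ± 0.044) from 113 ± 2.6 CPM. MLXIP, which encodes MondoA, rose with EZH2i (0.37), CBPi (0.31) and FSK (0.75), and MLXIPL, which encodes ChREBP, rose with EZH2i (0.75) and FSK (0.87) and was not called with CBPi (0.10). Of 6 gluconeogenesis genes, 3 were tested, and 1 rose and 1 fell with EZH2i, 1 rose and 0 fell with CBPi and 3 rose and 0 fell with FSK. PCK2, the mitochondrial phosphoenolpyruvate carboxykinase, rose with EZH2i (0.23 ± 0.063), CBPi (1.56 ± 0.061) and FSK (1.17 ± 0.061) from 32.6 ± 2.4 CPM. PC, pyruvate carboxylase, rose with FSK (1.12 ± 0.053) from 51.1 ± 2.1 CPM, fell with EZH2i (-0.15 ± 0.054) and was not called with CBPi (-0.11). Of 7 genes of the pentose phosphate pathway, 2 rose and 3 fell with EZH2i, 2 rose and 2 fell with CBPi and 1 rose and 3 fell with FSK. TALDO1 fell with EZH2i (-0.27), CBPi (-0.38) and FSK (-0.30), and RPIA fell with FSK (-0.57) and was not called with EZH2i (-0.12) or CBPi (0.11).

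Summed over the 31 members, a share of library counts in which longer genes weigh more, the level was 12480 ± 417 CPM at baseline, 11910 ± 177 CPM with EZH2i, 9933 ± 145 CPM with CBPi and 13000 ± 199 CPM with FSK. The CBPi libraries lay below those of the other groups. Most of this sum is PKM, GAPDH and TPI1, at 3812, 2740 and 1227 CPM at baseline and 2802, 2184 and 575 CPM with CBPi. The lower sum is thus not one of every member, as 8 members rose with CBPi. Pyruvate dehydrogenase and its kinases, summed, went from 821 ± 17 CPM at baseline to 1109 ± 17 CPM with EZH2i and 1191 ± 28 CPM with CBPi, and were 853 ± 22 CPM with FSK. Most of this sum is PDK4, at 632 ± 10.5 CPM at baseline, 975 ± 15 CPM with EZH2i, 1052 ± 27 CPM with CBPi and 702 ± 16 CPM with FSK. The rise is thus not one of the group, as PDK1, PDK2 and PDHA1 fell with both inhibitors. PDK3 rose with EZH2i and fell with CBPi. RNA levels do not give the flux of glucose or lactate, which was not measured here.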

How the data were processed

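Per the labels, the 12 libraries hold polyadenylated RNA of NCI-H295R cells, with 4 groups of 3 biological replicates each. Per the submitters' processing notes the authors used STAR, featureCounts and hg38. What versions and annotation release they took, whether strand was used and how multimapping reads were treated is not given in the sources used here. A table deposited by the authors holds counts for 60617 Ensembl genes, 60261 of which had a symbol, and a gene length column. Since 65.6% of the non-zero values are whole within 1e-06 and the rest fractional, the deposited values were assumed to be estimated counts (expected counts), and how a read came to be divided between rows is not given in the sources used here. Counts of 23 of the 31 members are fractional in at least 1 library. All 12 count columns matched the labels by name, with 0 left over.

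After rounding, edgeR 4.0.16 was run under R 4.3.3 on the 20360 genes that filterByExpr kept for the 4 groups. Libraries of 20.6 to 31.5 megacounts were scaled by TMM, and all 12 libraries entered 1 robust quasi-likelihood fit (common dispersion 0.00248). Adjustment was by Benjamini-Hochberg over all genes tested, at a threshold of 0.05, and glmTreat tested against a fold of 1.5. The p-values measure the spread between cultures of 1 cell line. Isoform ratios used counts per kilobase of the deposited length with 0.5 added. Intervals of low counts are 95% exact and cover counting error only. Overlaps of exons and the positions of genes came from GENCODE release 29 (GRCh38). Pseudogene rows were found by name, as the symbol of a member followed by P and a number. Copies named otherwise, such as PGAM4 and SLC2A14, are not among them. Pseudogene rows of 15 members were found, and those of 4 members reached 2% of the parent in any library. Exons of 21 members overlap another gene, 16 of them on the other strand.

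Alternatives were DESeq2 1.42.0, limma voom (limma 3.58.1), RLE, upper quartile and library size scaling, no filter or at least 1 CPM in 3 libraries, fits of the 2 groups compared, and each library left out. The scripts were tested on simulated data. Values in every library are given for members past 1.5-fold, isoform pairs and GAPDH. From each other list up to 3 genes with the largest called changes and a mean of at least 1 CPM were named, with every HIF factor and sensor tested. Some list genes that meet this are not reported here. The members, lists and tests were chosen with earlier results of these data known, so they are no independent support.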

Additional observations from a re-analysis of the deposited data

How the results depend on the processing

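Of 93 member comparisons with baseline, 70 were called. Under the alternatives they gave 1386 values, of which 1318 kept the direction and the side of the threshold, 30 lost the call, 22 gained one and 16 changed sign. The calls lost under at least 1 alternative belong to 11 comparisons, PFKM, PFKFB4, ENO1, SLC2A1, CA9 and BNIP3 with CBPi and GPI, PKM, PDK4, SLC16A1 and CA9 with FSK. None of the 6 comparisons that changed sign was called by the test as reported: ALDOA with EZH2i (0.0042 with library size alone, -0.0598 to 0.0136 without 1 library), ENO1 with EZH2i (0.0139 with upper quartile scaling, 0.0198 with library size alone, 0.0067 with at least 1 CPM in 3 libraries, -0.0412 to 0.0257 without 1 library), PKM with EZH2i (-0.0062 in a fit of the 2 groups, -0.0336 to 0.0328 without 1 library), PFKL with FSK (-0.0286 with library size alone), SLC16A3 with FSK (0.0272 with voom, -0.298 to 0.1582 without 1 library) and PDHA1 with FSK (-0.0971 to 0.0288 without 1 library). The cause was not tested. Library size alone moved the members called lower with FSK from 10 to 16, and their median with FSK from -0.04 to -0.105. The members' median with EZH2i was -0.25 in a fit of the 2 groups and -0.26 to -0.13 without 1 library, against -0.20. With CBPi it was -0.26 with at least 1 CPM in 3 libraries and -0.31 to -0.23 without 1 library, against -0.28. Of 216 ratio values under an alternative, 1 changed sign, SLC16A3 to SLC16A1 with FSK without baseline replicate 1 (-0.1477, against 0.18, and -0.1477 to 0.3614 without 1 library). With DESeq2, 1 MondoA gene fell with EZH2i (2 with edgeR), 1 other glycolytic gene rose with CBPi (2) and 1 gluconeogenesis gene fell with CBPi (0). With library size alone, 1 MondoA gene (2) and 1 pentose phosphate gene (3) fell with EZH2i, and with FSK 3 other glycolytic genes rose (5) and 2 MondoA genes fell (1). The rows added to ALDOA and LDHB are an alternative chosen after the data were seen, and it kept the direction of the 6 ratios. No paired analysis was possible because the labels carry no replicate numbers. Depth limits CA9 and SLC16A3, which rest on at most 43 and 45 counts per group.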
